A study of Mus musculus with 14 samples.

Results

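The 29 genes described here make cholesterol, take it up or store it, and were chosen by symbol from the 22263 genes of the liver and kidney count tables. All 29 had a row in the liver table of 19660 genes, and 28 had one in the kidney table of 20203 genes, where Soat2 had none. Adult male transgenic mice of 12 weeks, all carrying the human angiotensinogen gene of haplotype -6A, were kept on a normal diet or given a high salt diet. The labels name no other allele or agent, do not say how long the diet lasted, and give no promoter or founder line for the transgene. Liver RNA was sequenced from 4 libraries per diet and kidney RNA from 3 libraries per diet, to follow gene expression under high salt. No sample analysed here came from mice without the transgene, so every comparison is between diets in transgenic animals. Nothing states that the libraries came from separate animals, and the p-values measure only the spread between these samples.

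Cholesterol is built from acetyl-CoA through mevalonate and the isoprenoid diphosphates to squalene, which is folded to lanosterol and then trimmed and reduced to cholesterol. When sterols in the membrane of the endoplasmic reticulum run low, the transcription factor SREBP2, the product of Srebf2, is cut free and switches on most of these enzymes together. The liver is a main site of this synthesis, and it also takes cholesterol from lipoproteins, frees it in lysosomes and stores the surplus as esters. The SREBP2-type genes were taken as 8 enzymes from acetyl-CoA to the prenyl diphosphates, 11 enzymes from squalene to cholesterol, Srebf2 itself and Stard4, a sterol carrier that is a classic SREBP2 target. The 8 uptake and storage genes were 2 receptors, 3 lysosomal genes and 3 esterifying enzymes.

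Promoters of 22 of the 29 genes were found in the RefSeq table (GRCm38.p6), as 25 windows from 250 bases before the start to 50 bases after it. Sterol response elements bind SREBP2, and CCAAT and GC boxes bind the partners NF-Y and Sp1. The stretches printed here are the 250 bases before the start of Hmgcs1, which alone held the searched sterol element, and of Ebp, a sterol isomerase whose liver values did not overlap between the diets. Capitals mark CCAAT on either strand (ATTGG where it lies on the other strand) and, in Hmgcs1, the sterol element TCACNCCAC. Both windows lie outside every annotated exon of GENCODE M21.
Hmgcs1 (chr13:119690101-119690350, plus strand): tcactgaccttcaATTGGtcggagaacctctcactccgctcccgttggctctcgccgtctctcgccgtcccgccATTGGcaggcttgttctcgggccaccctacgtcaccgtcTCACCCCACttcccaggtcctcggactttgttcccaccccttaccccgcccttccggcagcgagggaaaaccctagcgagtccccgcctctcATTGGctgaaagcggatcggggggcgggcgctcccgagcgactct
Ebp (chrX:8193513-8193762, minus strand): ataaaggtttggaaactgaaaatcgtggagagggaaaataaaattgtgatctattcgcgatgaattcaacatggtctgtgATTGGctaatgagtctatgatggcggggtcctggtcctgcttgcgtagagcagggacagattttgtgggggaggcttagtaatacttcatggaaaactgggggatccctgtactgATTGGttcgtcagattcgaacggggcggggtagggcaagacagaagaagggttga

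In Hmgcs1 the sterol element lies 137 to 129 bases before the start, between CCAAT letters at 176 to 172 and at 45 to 41 bases before it, with a further CCAAT at 237 to 233. Ebp has CCAAT at 170 to 166 and at 55 to 51 bases before the start. Msmo1, a sterol oxidase, has CCAAT at 160 to 156, 96 to 92 and 55 to 51 bases before its RefSeq start. Its letters are not shown, since 214 of these 250 bases lie in an exon that GENCODE M21 annotates. All searches covered both strands, and the motifs did not overlap in the letters shown. CCAAT was found in 20 of the 25 windows (80.0%) and in 37.4% of all 32851 windows of the table. The GC box GGGCGG was likewise in 20 of 25 (80.0%), against 35.7% of all windows. By gene, CCAAT was in 16 of 17 SREBP2-type genes with a window, Acat2 lacking it, and in 4 of 5 uptake and storage genes, Lrp1 lacking it. TCACNCCAC was in 1 of 25 windows (4.0%) and in 1.24% of all windows. With up to 1 mismatch it was in 9 of 25 (36.0%) and in 24.2% of all windows. A match is a run of letters and not a measured binding site.

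Liver libraries held 37267778 to 51487382 gene counts and kidney libraries 16046094 to 22004927. Liver libraries of the normal diet keep the numbers 1 to 4 of their titles; those of high salt are named HS5 to HS8 from their columns, since these numbers match no title. Mitochondrial transcripts took 2.30% and 2.06% of the counts in normal diet liver libraries 1 and 2, and 11.3% to 29.6% in the other 6. HS5 and HS6 differed by a chi-square per gene of 1.59, where other liver pairs sharing a diet reached 9.83 to 62.8. The main fits count them as separate libraries. The numbers called, the group medians and the p-values of some genes are also given with this pair summed. Hepatocyte markers (Alb, Apoa1, Ttr, Cyp2e1 and Tat) all had counts in liver and summed to 49800 to 75060 CPM (counts per 1000000 gene counts) on the normal diet and 86940 to 104000 CPM on high salt. Kidney tubule markers summed to 25010 to 58870 CPM in kidney and to at most 45.6 CPM in liver, so both tissue labels matched their markers.

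In liver, 1 of the 29 genes passed the test, the sterol enzyme Msmo1, which was lower on high salt. Msmo1 (ENSMUSG00000031604, chromosome 8, 64718139 to 64733792, minus strand, GRCm38) encodes an oxidase that takes part in removing methyl groups from lanosterol-derived sterols. It stood at 348, 229, 197 and 206 CPM in normal diet libraries 1 to 4 and at 106, 107, 78.2 and 127 CPM in HS5 to HS8. Every high salt library lay below every normal diet library. The gap between the diets was wider than the spread within high salt but narrower than the spread within the normal diet. The means were 245 ± 70.1 and 104.7 ± 19.98 CPM (SD, n = 4 each). Msmo1 fell by 1.23 on the log2 scale, with an SE of 0.23 (edgeR quasi-likelihood test, adjusted p = 0.044).

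The call of Msmo1 lay near the threshold and depended on single libraries. Its edgeR adjusted p was 0.0959 without normal diet library 1, 0.0947 without library 2 and 0.0611 without HS7. Without HS5, HS6 or HS8 it was 0.168, 0.182 and 0.115. It was 0.176 with HS5 and HS6 summed, 0.0952 without normal diet libraries 1 and 2 together and 0.0529 with no filter on low counts. Msmo1 was lower on high salt in all 18 alternatives, by -1.33 to -0.94 on the log2 scale, and passed in 9 of them, with adjusted p-values from 8.43e-05 to 0.182 over the 18.

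Of the 29 genes tested in liver, 1 was called lower, where 0.410% of all 15130 genes tested were called lower. None was called higher with edgeR or with DESeq2, 0 had an unadjusted p-value under 0.05 in that direction, and the share of all genes called higher was 0.595%. At an unadjusted p-value under 0.05, 10 of the 29 were lower, where 11.3% of all genes were lower and 9.83% higher. In 7 of the 29 every high salt library lay below every normal diet library, where this held for 6.03% of all genes, and the opposite order, found in 6.42% of all genes, held for 0. At an unadjusted p-value under 0.05 with edgeR, the number lower was 5 without normal diet library 1 and 6 without HS5, and the number higher 1 and 0. All genes at this level, in either direction, were then 2185 of 15460 and 2042 of 15257, against 3205 of 15130 in the main fit. With HS5 and HS6 summed 7 members were lower and 0 higher, beside 2056 of all 15399 genes. Without HS7 there were 8 lower and 2 higher, and without normal diet libraries 1 and 2 together 4 lower and 3 higher. Those fits gave 3486 of 15295 and 2554 of 15885 genes in either direction. DESeq2 called Idi1 and Cyp51 lower beside Msmo1 (DESeq2 adjusted p = 0.0375 and 0.0444), where it called 592 of all 15130 genes lower. Without normal diet library 3, edgeR called Mvk and Scarb1 lower as well (adjusted p = 0.0417 each), where it called 393 of all 15471 genes lower. With HS5 and HS6 summed the edgeR adjusted p was 0.32 for Idi1, 0.313 for Cyp51, 0.309 for Mvk and 0.363 for Scarb1.

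**Figure D1:**
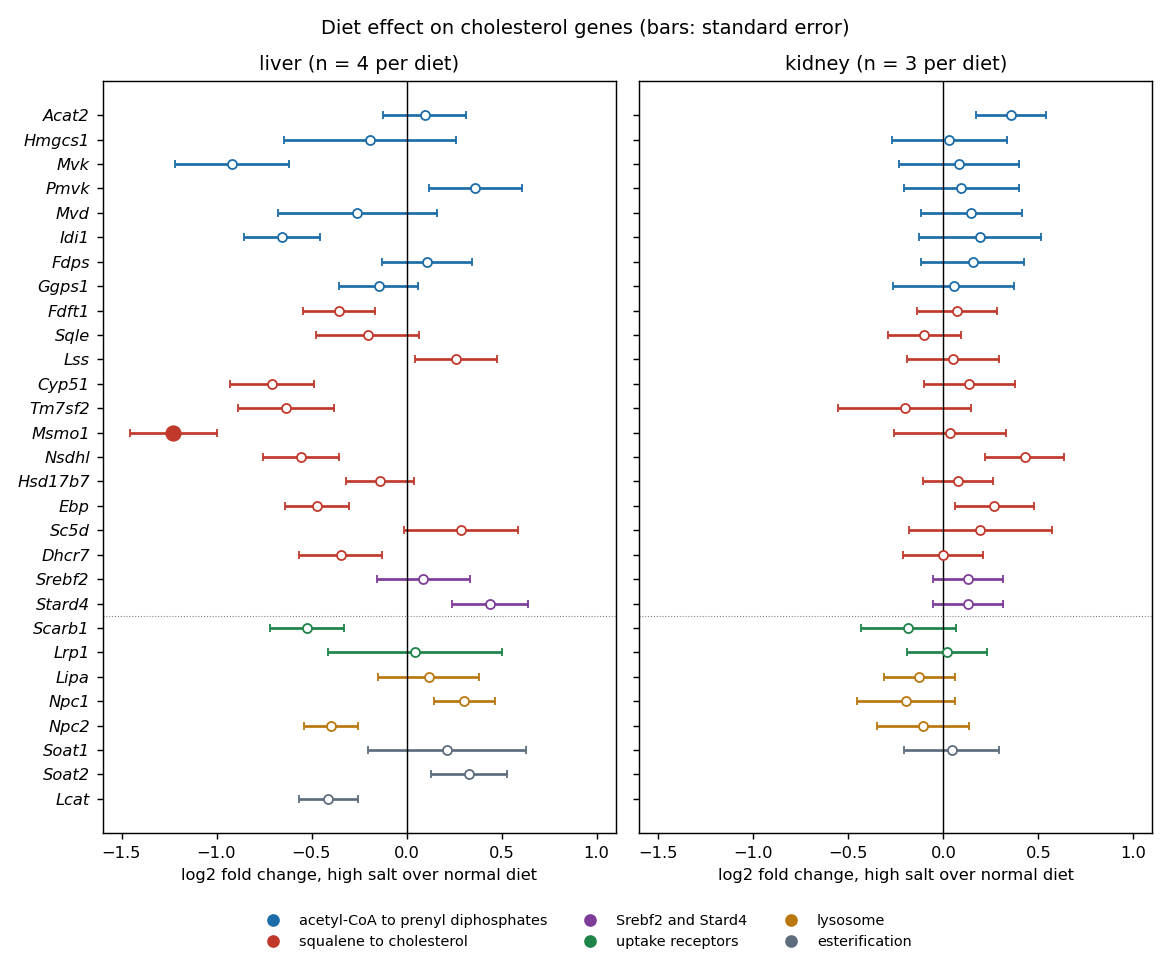
Log2 fold change of each gene on high salt over the normal diet, in liver (n = 4 per diet) and kidney (n = 3 per diet), with bars of 1 standard error and colours by role; the filled point passed the test. In liver the lowest point is Msmo1 at -1.23 and most sterol enzymes lie left of 0, while in kidney no point passed and 20 of 27 lie right of 0.

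The SREBP2-type genes and the uptake and storage genes had different medians in liver, although neither group was of 1 direction. For the 21 SREBP2-type genes the median log2 fold change was -0.20, with 14 lower and 7 higher, and for the 8 uptake and storage genes it was 0.08, with 3 lower and 5 higher. Over all genes tested the median was -0.02. The uptake and storage median thus lay 0.28 above the SREBP2-type median, a difference that was not tested. With 1 library left out this difference ran from 0.07, without normal diet library 1, to 0.47, without HS8. Without normal diet libraries 1 and 2 together it was -0.04, from medians of -0.28 and -0.24. With HS5 and HS6 summed it was 0.24, from medians of 0.03 and -0.21. The medians themselves moved further: without HS7 they were -0.06 for the SREBP2-type and 0.18 for the uptake and storage genes, and without library 2 they were -0.42 and -0.13.

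Among the enzymes from acetyl-CoA to the prenyl diphosphates, the median was -0.17, with 5 of 8 lower and 0 called with edgeR or DESeq2 except Idi1 with the latter. Idi1 isomerises isopentenyl diphosphate, the building block of all isoprenoids. It stood at 234, 160, 163 and 180 CPM in normal diet libraries 1 to 4 and at 120, 116, 86.4 and 144 CPM in HS5 to HS8. No high salt library reached the lowest normal diet value, and HS7 was the lowest of all. On the log2 scale Idi1 differed by -0.66 ± 0.20 (SE; edgeR unadjusted p = 0.00819, adjusted p = 0.13).

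Mvk, which puts the first phosphate on mevalonate, had the second lowest fold change of the 29 genes. Its values were 20.4, 15.4, 8.37 and 16.6 CPM under the normal diet and 8.57, 9.88, 4.74 and 8.97 CPM in HS5 to HS8. The diets overlapped, because normal diet library 3 lay among the high salt values. On the log2 scale the difference was -0.92 ± 0.30 (SE; edgeR unadjusted p = 0.0119, adjusted p = 0.143).

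The neighbouring steps did not share this order. Hmgcs1, the cytosolic synthase that makes the substrate of the rate-limiting reductase, spread over 54.5 to 214 CPM under the normal diet and 46.2 to 164 CPM on high salt. Its log2 fold change was -0.19 ± 0.45 (SE), so the spread within each diet was wider than the difference. Pmvk and Fdps, the kinase after Mvk and farnesyl diphosphate synthase, had log2 fold changes of 0.36 and 0.11, with overlapping diets. Acat2, which condenses acetyl-CoA at the entry of the pathway, stood at 0.10, Mvd, the decarboxylase that yields isopentenyl diphosphate, at -0.26, and Ggps1, which extends farnesyl diphosphate to the geranylgeranyl form, at -0.15. Exons of Fdps share 1124 bases with a predicted gene on the same strand, and Acat2 has a near-identical neighbour, Acat3, so the split of reads is uncertain for both.

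The sterol enzymes from squalene onward had the lower median, -0.36, with 9 of 11 lower. In 4, among them Msmo1, every high salt library lay below every normal diet library, where this held for 6.03% of all genes. Cyp51, the demethylase that first acts on lanosterol, stood at 216, 124, 169 and 154 CPM in normal diet libraries 1 to 4. In HS5 to HS8 it was 111, 107, 70.6 and 117 CPM. The highest high salt value lay just under the lowest normal diet value. The log2 fold change was -0.71 ± 0.22 (SE; edgeR unadjusted p = 0.00934, adjusted p = 0.133).

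Nsdhl, the dehydrogenase that follows Msmo1 in taking off methyl groups, stood at 129, 89.4, 98.9 and 92.4 CPM under the normal diet and at 76.2, 71.9, 47.8 and 82.7 CPM in HS5 to HS8. The diets did not overlap, and normal diet library 1 was the highest and HS7 the lowest. Its log2 fold change was -0.56 ± 0.20 (SE; edgeR adjusted p = 0.172). Ebp, the isomerase that moves the ring double bond, was 270, 235, 197 and 207 CPM against 148, 145, 185 and 178 CPM. For Ebp the low libraries were HS5 and HS6, not HS7. For this gene the log2 fold change was -0.47 ± 0.17 (SE; edgeR adjusted p = 0.167).

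Tm7sf2, a sterol reductase, had a log2 fold change of -0.63 and overlapping diets (edgeR unadjusted p = 0.0314, adjusted p = 0.198). Its exons share 532 bases with Vps51 on the same strand. Fdft1, the squalene synthase that commits carbon to sterols, stood at -0.36, and Dhcr7, a reductase at the last step, at -0.35. Sqle, the squalene epoxidase, had -0.20 and Hsd17b7, the ketone reductase of the methyl removal complex, -0.14. Against that order, Lss, the cyclase that forms lanosterol, had 0.26 and Sc5d, a late desaturase, 0.29. The enzymes on either side of Lss thus carried the opposite sign, and neither of these 2 differences passed the test. Without a stated strand in counting, reads on exons shared with a gene of the opposite strand cannot be told apart, over 774 bases of Fdft1 (with Ctsb), 557 of Hmgcs1, 381 of Lss, 323 of Idi1, 257 of Ggps1 (with Arid4b) and 166 of Cyp51 (with Akap9). Sc5d ranged from 184 to 494 CPM under the normal diet and from 361 to 465 CPM on high salt.

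For the regulator and the sterol carrier no difference passed. Srebf2 averaged 23.6 ± 7.70 CPM under the normal diet and 25.1 ± 5.40 CPM under high salt (SD over 4 libraries each). Its difference of 0.09 ± 0.25 (SE) in log2 did not pass. Stard4 ranged from 67.8 to 131 CPM under the normal diet and from 121 to 153 CPM on high salt, so the diets overlapped in their upper and lower values. Its log2 fold change of 0.44 ± 0.20 (SE) was the highest of the 29 genes (edgeR unadjusted p = 0.0538, adjusted p = 0.243). The RNA level of Srebf2 does not measure the cleavage of its protein, which these data do not hold.

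**Figure D2:**
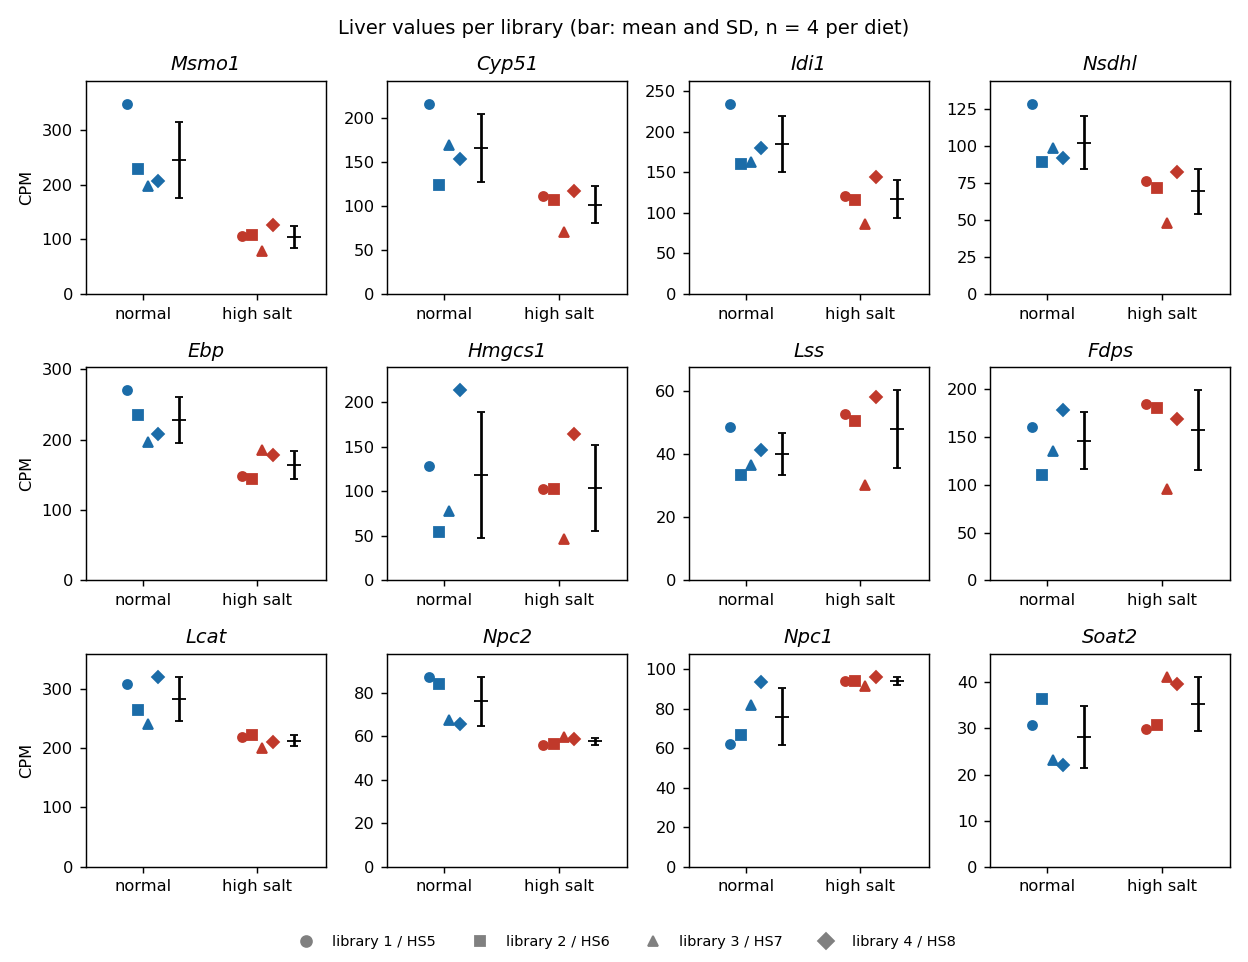
Liver CPM of 12 genes in each library, with the mean and SD of each diet beside the points (n = 4 per diet); marker shapes only name the libraries and pair nothing. Msmo1, Cyp51, Idi1, Nsdhl, Ebp, Lcat and Npc2 show no overlap between the diets, whereas HS7 lies far under the other high salt libraries in Lss and Fdps.

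Among the 8 uptake and storage genes, 0 were called with edgeR or DESeq2. With edgeR 3 had an unadjusted p-value under 0.05, all lower on high salt, where 11.3% of all liver genes were lower. In 2 every high salt library lay below every normal diet library, where this held for 6.03% of all genes. Lcat, which the liver secretes to esterify cholesterol in plasma lipoproteins, stood at 308, 264, 240 and 320 CPM under the normal diet and at 219, 222, 200 and 211 CPM in HS5 to HS8. Npc2, the lysosomal carrier that hands cholesterol on to Npc1, was 87.4, 83.8, 67.3 and 65.5 CPM against 56.1, 56.6, 59.6 and 58.7 CPM. In both genes the high salt libraries lay close together and all under the normal diet libraries. The log2 fold change of Lcat was -0.41 ± 0.15 (SE), and that of Npc2 -0.40 ± 0.14 (SE), with edgeR adjusted p-values of 0.18 and 0.172.

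Scarb1, the receptor that takes cholesterol esters from high density lipoprotein, had the lowest fold change of this group. It was 99.6, 113.9, 69.6 and 126.3 CPM in normal diet libraries 1 to 4 and 70.3, 76.0, 61.8 and 76.4 CPM on high salt. Normal diet library 3 lay among the high salt values, so the diets overlapped. In log2 terms Scarb1 differed by -0.53 ± 0.19 (SE; edgeR unadjusted p = 0.022, adjusted p = 0.175).

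The other 5 genes of this group carried positive signs and 0 of them had an unadjusted p-value under 0.05 in the edgeR test. Npc1, the lysosomal membrane exporter of cholesterol, stood at 62.3, 66.6, 81.5 and 93.3 CPM against 93.9, 93.9, 91.3 and 96.1 CPM. The high salt libraries were nearly equal, and normal diet library 4 reached them. Its log2 fold change was 0.30 ± 0.16 (SE), and 511 bases of its exons are shared with Rmc1 on the opposite strand. Lipa, the acid lipase that frees cholesterol from its esters in lysosomes, had 0.12. Soat2, the esterifying enzyme of hepatocytes, had 0.33.

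Lrp1 and Soat1 split the normal diet libraries rather than the diets. Lrp1, an endocytic receptor for remnant lipoproteins, stood at 150, 106, 282 and 587 CPM under the normal diet and between 222 and 329 CPM on high salt. Soat1, the esterifying enzyme found in macrophages and many other cells, was 0.951, 0.708, 2.67 and 2.26 CPM under the normal diet and 1.43 to 2.43 CPM on high salt. Both genes were lowest in normal diet libraries 1 and 2, which also had the low mitochondrial shares, whose part in these values was not tested. Their log2 fold changes were 0.04 and 0.21, and ran from -0.58 to 0.68 and from -0.37 to 0.54 over the alternatives.

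Of the summed cell type markers in liver, those of hepatocytes and of stellate cells and fibroblasts did not overlap between the diets, and their part in the results was not tested. Most of the hepatocyte sum was Alb, at 32440 to 50640 CPM under the normal diet and 67820 to 85230 CPM on high salt. The hepatocyte markers did not share 1 direction. Alb had a log2 fold change of 0.76 and Ttr one of 0.28, while Cyp2e1 had -0.87, Tat -0.815 and Apoa1 -0.155. None of them passed the edgeR test (adjusted p = 0.19 for Alb and 0.114 for Cyp2e1). Stellate and fibroblast markers (6 of 6 with counts) summed to 73.7 to 137 CPM under the normal diet and 153 to 170 CPM on high salt. Macrophage markers (8 of 8) summed to 157 to 322 CPM and 111 to 216 CPM, and endothelial markers (4 of 4) to 23.5 to 62.5 CPM and 38.2 to 66.5 CPM. Kidney tubule markers in liver summed to 0.476 to 5.82 CPM and 2.75 to 45.6 CPM. These last 3 sums overlapped between the diets. In such bulk samples fewer cells of a type and less RNA per cell cannot be told apart.

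The liver libraries differed from one another across the SREBP2-type genes within each diet. For each gene the deviation was taken as log2(CPM + 0.5) minus the gene's mean over the 8 liver libraries. HS7 lay below that mean in 19 of 21 genes, with a median deviation of -0.55, and in 11 of the 11 sterol enzymes. The other high salt libraries had median deviations of -0.01 (HS5), 0.04 (HS6) and 0.03 (HS8), so only HS7 stood far from the rest of its diet. Normal diet library 1 lay above the mean in 20 of 21 genes, with a median of 0.39, and libraries 2, 3 and 4 had medians of -0.04, -0.12 and 0.17.

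Ranks within a diet were also uneven. HS7 was the lowest high salt library in 17 of 21 SREBP2-type genes (81.0%), and in 36.0% of all liver genes tested. Normal diet library 1 was the highest of its diet in 15 of 21 (71.4%), and in 20.4% of all genes. Library 2 was the lowest normal diet library in 11 of 21 (52.4%, against 26.5% of all genes) and HS8 the highest high salt library in 11 of 21 (52.4%, against 27% of all genes). In the uptake and storage genes HS7 was the lowest in 6 of 8 and normal diet library 1 the highest in 1 of 8. Genes of a shared pathway are not independent of each other, and these ranks carry no test.

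**Figure D3:**
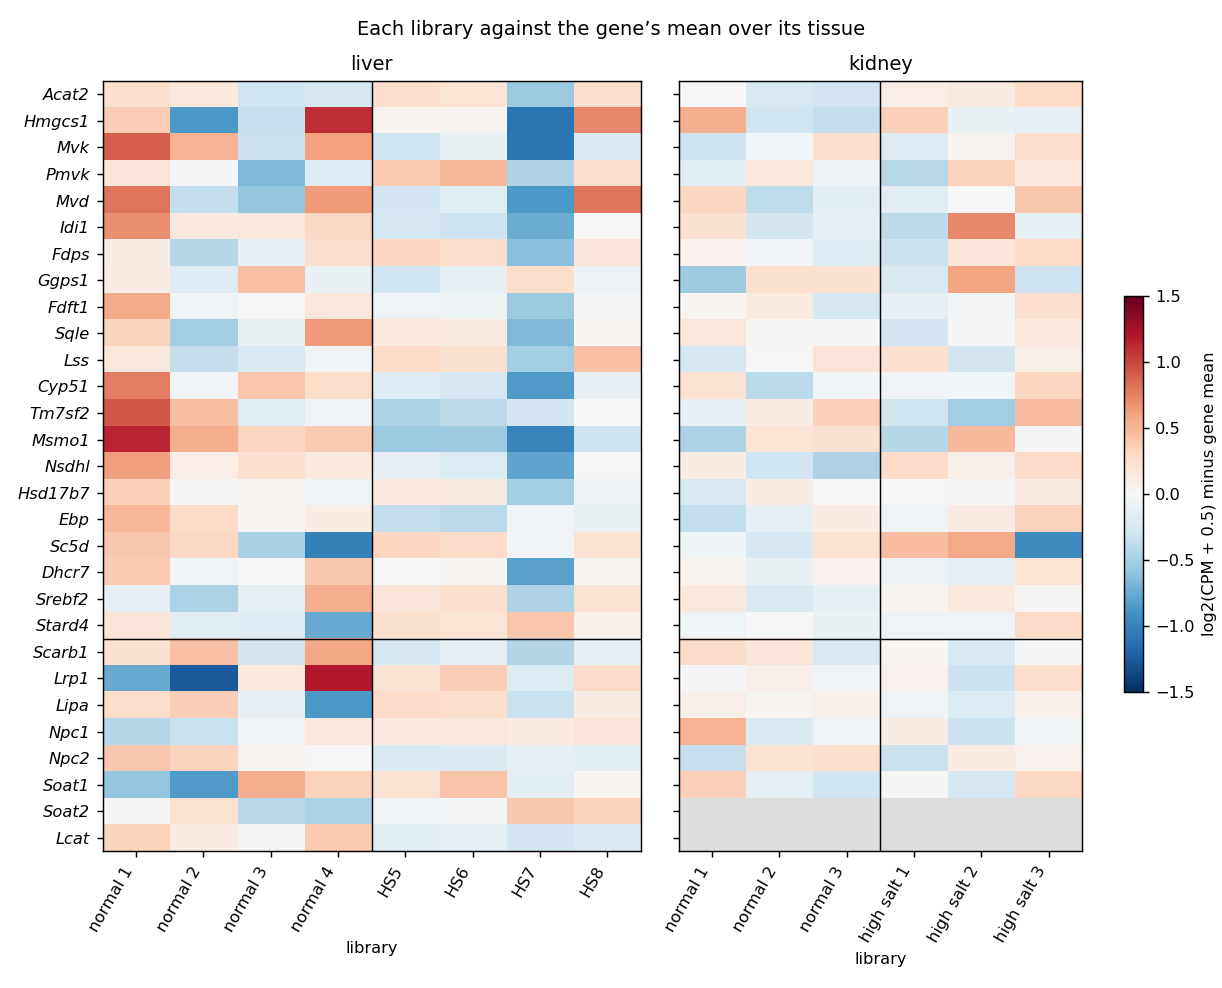
Deviation of each library (columns) from the gene's mean over its tissue, in log2(CPM + 0.5), for each gene (rows); red is above and blue below the mean, grey marks genes not tested, and lines divide the diets and the 2 groups of genes. In liver the SREBP2-type rows are red in normal diet library 1 (median 0.39) and blue in HS7 (median -0.55), and no kidney library departs as far (medians -0.08 to 0.21).

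In kidney none of these genes passed the test. Of the 27 tested, 0 were called with edgeR or DESeq2, and 0 had an unadjusted p-value under 0.05. Of all 15847 kidney genes 0 (0%) were called with edgeR, and at an unadjusted p-value under 0.05 1.27% were higher and 0.732% lower. For the 21 SREBP2-type genes the kidney median in log2 was 0.09, with 18 positive, and for the 6 uptake and storage genes tested -0.12, with 4 negative. Leaving out 1 library moved the SREBP2-type median from 0.03, without high salt library 3, to 0.19, without high salt library 1, with 14 to 18 positive. For the uptake and storage genes the median then ran from -0.18 to -0.03, with 3 to 6 of 6 negative. The median over all genes was -0.02. All 8 enzymes up to the prenyl diphosphates had positive values, from 0.03 to 0.36, where 7336 of all 15847 kidney genes were positive. Of these enzymes only Acat2 and Fdps stayed positive in all 15 alternatives, and Ggps1 fell as low as -0.30.

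Acat2 was the member whose kidney diets did not overlap, with 51.7, 43.9 and 42.4 CPM under the normal diet and 55.5, 57.2 and 63.9 CPM on high salt. Across all kidney genes 3.84% had every high salt library above the normal diet, and 3.04% every one below it, an order found in 0 of these genes. The log2 fold change of Acat2 was 0.36 ± 0.18 (SE; edgeR unadjusted p = 0.0877). Nsdhl had the highest value, 0.43 ± 0.21 (SE), from 30.0, 22.4 and 19.9 CPM to 34.0, 29.5 and 33.8 CPM. Its diets overlapped through normal diet library 1 (edgeR unadjusted p = 0.0724). That library stood apart from the other 2 of its diet, with a chi-square per gene of 48.2 against either, where those 2 differed by 4.19. Without it the edgeR unadjusted p was 0.0049 for Nsdhl and 0.0248 for Acat2 (adjusted p = 0.221 and 0.265), and 2627 kidney genes in place of 318 had an unadjusted p-value under 0.05, with 0 called. With the replicate number as a block, 1 member, Nsdhl, had an unadjusted p-value under 0.05 (0.0429). Msmo1 stood at 22.2, 35.7 and 36.6 CPM against 22.96, 43.6 and 30.4 CPM, a log2 fold change of 0.04 ± 0.29 (SE).

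Lcat and Soat2 could not be tested in kidney. Lcat had 4, 0 and 1 counts in the normal diet libraries and 5, 0 and 4 on high salt, below the filter. A count of 0 there allows up to 3 counts. Soat2 had no row in the kidney count table and stood at 0.986, 1.14 and 3.76 units in the authors' normalized table on the normal diet and was listed at 0 in every high salt library.

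Whether the diet effect differed between liver and kidney was tested in 1 fit of the 14 libraries. Of the 28 genes tested, 0 passed with edgeR or DESeq2, and of all 16633 genes 0 (0%) passed with edgeR. Lcat, with at most 5 counts in any kidney library, passed the filter of this fit through its liver counts. Its value (-1.14 with an SE of 0.86) therefore says little about kidney. At an unadjusted p-value under 0.05 there were 5 members, all with a lower diet effect in liver, where 10.1% of all genes reached this in either direction. They were Msmo1, Nsdhl, Ebp, Cyp51 and Mvk. With HS5 and HS6 summed there were 4 members, again all lower in liver, beside 1319 of all 16602 genes in either direction. The difference of the log2 fold changes, liver minus kidney, was -1.26 for Msmo1 with an SE of 0.41, and -0.98 for Nsdhl with an SE of 0.32 (edgeR adjusted p = 0.328 each). The SREBP2-type genes had a median difference of -0.26 and the uptake and storage genes, Lcat included, one of 0.07. With at least 10 counts in every library, which left Lcat out, the uptake and storage median was 0.11 over 6 genes. With HS5 and HS6 summed the medians were -0.30 and 0.04. With 1 library left out the SREBP2-type median ran from -0.40 to -0.14. The uptake and storage median ran from -0.19 to 0.20, and was negative without normal diet liver library 1 (-0.13) or 2 (-0.19), HS6 (-0.004), kidney normal diet library 1 (-0.02) or kidney high salt library 2 (-0.07). The lower values of the sterol enzymes in liver are therefore not shown to be particular to liver.

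Levels in the 2 organs on the normal diet were set side by side without a test, since the tables were quantified apart. Of the 27 genes tested in both tissues, 17 were higher in every liver library than in every kidney library, 4 were higher in kidney and 6 overlapped. Among all 13669 genes tested in both tissues, 20.7% were higher in liver and 37.9% in kidney by the same rule. Fdps stood at 146 ± 29.6 CPM in liver and 3.65 ± 0.369 CPM in kidney (SD, n = 4 and 3), 40.1 times higher. Tm7sf2 was 38.3 times higher, Scarb1 21.8 times, Lrp1 20.6 times and Dhcr7 11.3 times. All 11 sterol enzymes but Sqle and Cyp51 were higher in liver without overlap. For Fdps and Tm7sf2 the split of reads is uncertain, since 1124 and 532 exon bases are shared with a gene on the same strand. The part of this split in their folds was not tested. The sizes of the folds also depend on the scaling. Mitochondrial transcripts took 31.5% to 41.2% of the normal diet kidney counts, and with these transcripts left out Fdps was 31.1 times higher in liver and Tm7sf2 29.8 times, and again 17 genes were higher in liver and 4 in kidney. Shares over all genes were then 14.5% and 46.9%. With plain library totals 17 were higher in liver and 3 in kidney, Lipa overlapping.

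The genes higher in kidney were Hmgcs1, Ggps1, Lipa and Soat1. Hmgcs1 stood at 119 ± 70.6 CPM in liver and 373 ± 142 CPM in kidney, 3.14 times higher in kidney, and Ggps1 was 4.75 times higher there. Soat1 was 1.65 ± 0.965 CPM in liver and 16.2 ± 4.17 CPM in kidney, 9.86 times higher. With mitochondrial transcripts left out these 3 folds were 4.05, 6.11 and 12.7. Idi1 and Cyp51, whose liver diets did not overlap, had normal diet levels that overlapped between the organs, with means of 184 and 193 CPM for Idi1 and 166 and 203 CPM for Cyp51. In kidney the adrenal markers searched were without a row in 7 of 8 cases, and the remaining one, Star, stood at 1.26 to 2.90 CPM.

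Per kilobase of exon, the most abundant of these RNAs in liver was Lcat, at 211 CPM per kb, followed by Ebp at 98.4, Sc5d at 72.2 and Idi1 at 52.5 CPM per kb. In kidney the order was led by Hmgcs1 at 81.1 CPM per kb, Idi1 at 55.04, Cyp51 at 45.9 and Lipa at 29.4 CPM per kb. Only Idi1 was among the leading 4 in both organs. The lowest of the 28 in liver was Soat1, at 0.168 CPM per kb.

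**Figure D4:**
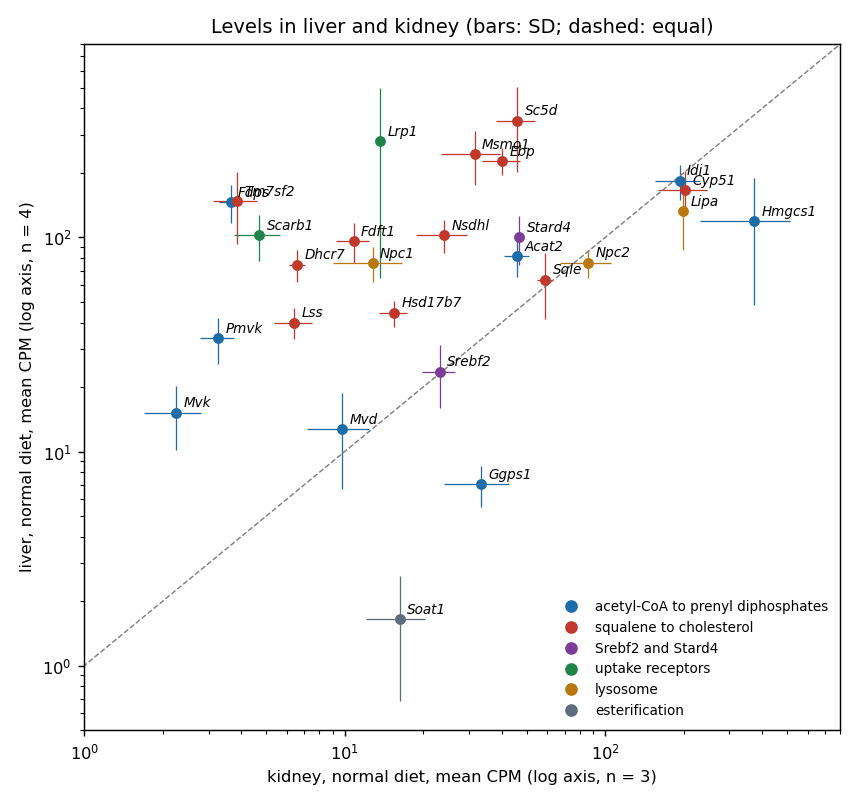
Mean CPM on the normal diet in kidney (horizontal, log axis, n = 3) and liver (vertical, log axis, n = 4), with SD bars, for 27 genes; Lcat and Soat2 are not drawn. Points above the dashed line of equal levels are higher in liver, led by Fdps (40.1 times) and Tm7sf2 (38.3 times), and Soat1 (9.86 times higher in kidney) lies farthest below it. Fdps and Tm7sf2 share exon bases with a gene on the same strand, so their split of reads is uncertain.

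A further 30 genes of sterol sensing, uptake and efflux gave no call in either tissue. In liver 29 were tested and 0 passed with edgeR, with a median log2 fold change of 0.13 and 5 higher and 3 lower at p under 0.05 before adjustment, beside 9.83% and 11.3% of all liver genes. Diets did not overlap in 3 that were higher and 2 that were lower, beside 6.42% and 6.03% of all genes. The smallest p-values belonged to Vldlr, a lipoprotein receptor (1.95, adjusted p = 0.0661 with edgeR), Aacs, which makes acetoacetyl-CoA in the cytosol (1.41, adjusted p = 0.0773), and Tmem97, a sterol-regulated membrane protein (-0.76, adjusted p = 0.0822), each with its log2 fold change. Vldlr and Aacs were higher, and Tmem97 lower, in every high salt library than in every normal diet library. In kidney 29 were tested, 0 passed with edgeR and 0 had an unadjusted p-value under 0.05, and the median was 0.00. Vldlr had a kidney log2 fold change of -0.30, which did not pass.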

How the data were processed

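RNA of liver and kidney was sequenced from SMARTer mRNA libraries, per the labels. Gene-level expected counts were deposited, which the file headers credit to Partek's expectation-maximisation. Of these values 58.2% in liver and 63.8% in kidney are whole, and every gene totals at least 10. The submitters' processing notes name Partek 7.0, STAR 2.5.3a, DESeq2 and build mm10, without their order. The authors also deposited a normalized signal per gene. In liver this signal is the counts times 1 factor per library, and in kidney it comes from another quantification. Strand use in counting is not given in the sources used here.

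After rounding, each tissue was fitted in R 4.3.3 by the quasi-likelihood method of edgeR 4.0.16, with TMM scaling and filterByExpr on diet, and a gene was called when its p-value, Benjamini-Hochberg adjusted over all genes, was under 0.05. The interaction of tissue and diet used all 14 libraries. CPM rest on TMM library sizes, and lengths on merged GENCODE M21 exons. Gene starts equalled the files' for all 29 genes. Replicate spread (biological coefficient of variation 0.314 in liver and 0.30 in kidney) limits precision more than counting. Floors cover counting error only, since reads lacking molecular identifiers may be copies of 1 molecule.

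All 29 genes were named by rule, as were the 3 pathway genes with the smallest p-values per tissue; some of the latter are not reported here. The members, groups, lists and alternatives were chosen with earlier results of these data known. Alternatives were RLE scaling, DESeq2 1.42.0, limma 3.58.1 on log2 of the normalized signal (pseudocounts 1 and 0.1), other filters, mitochondrial genes left out, each library left out, normal diet liver libraries 1 and 2 left out, HS5 and HS6 summed, all libraries in 1 fit, and the replicate block in kidney. The fits were tested on simulated counts.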

Additional observations from a re-analysis of the deposited data

Results flagged for a closer look

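In 58 groups of 4 liver libraries, a gap test at the 95% level looked for 1 library far from the other 3 of its diet. It found 4, where chance flags about 1 in 20 groups, or 2.9 here. All 4 were HS7 at the low end, in genes of the SREBP2-type group. HS7 held 56.1 CPM of Acat2, the entry enzyme, where the other high salt libraries held 94.9 to 98.8. It held 57.0 CPM of Fdft1, the squalene synthase, against 79.4 to 83.1. For Dhcr7, a last-step reductase, it stood at 36.5 CPM against 64.5 to 66.9, and for Srebf2 at 17.1 CPM against 27.1 to 28.3. HS5 and HS6, which are among the other 3 libraries each time, are far more alike than other pairs, so they narrow the range the gap is set against. The cause of the low values in HS7 was not tested.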

How the results depend on the processing

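With edgeR 152 liver genes passed. The number was 1122 with DESeq2, 260 with all 14 libraries in 1 fit, 52 without normal diet libraries 1 and 2, 12 with HS5 and HS6 summed, and 12 to 765 with 1 library left out. The members called lower in liver numbered 1. They were 3 with DESeq2, 0 with no filter on low counts, 0 with HS5 and HS6 summed, 0 without normal diet libraries 1 and 2, and 0 to 3 with 1 library left out. In kidney 0 genes passed and DESeq2 called 11. For the interaction 0 passed, with 145 by DESeq2, 2 at 10 counts or more in every library and 0 to 7 with 1 library left out. TCACNCCAC was in 1 promoter window, and in 9 with up to 1 mismatch. The cause of these shifts was not tested.

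The replicate block in kidney gave 0 called genes, with 459 at an unadjusted p-value under 0.05 against 318 without it. Same-numbered kidney libraries correlated at 0.407, 0.373 and -0.09 in their deviations, and normal diet library 3 with high salt library 2 at 0.387. Since these are deviations from means of 3 libraries, they cannot tell whether the numbers pair the libraries. No paired analysis was possible in liver because the high salt columns carry no title number.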

Other observations

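Adipose markers set the organs apart beside the cholesterol genes. In liver 3 of 5 (Adipoq, Plin1 and Lep) had no row or stood at 0, and the sum was at most 11.4 CPM. In kidney all 5 had counts in some library and summed to 37.3 to 123 CPM on the normal diet and 63.9 to 100.1 CPM on high salt. Most of this was Fabp4, at 34.8 to 110.5 CPM and 63.2 to 88.8 CPM. Adipoq and Cfd reached at most 5.15 and 5.68 CPM in kidney, Plin1 1.52 CPM and Lep 0.252 CPM. Macrophage markers in kidney, where Clec4f, Marco and Cd5l were absent, summed to 46.7 to 160 CPM and 58.9 to 88.1 CPM. In liver, where all 8 had counts, they summed to more, 157 to 322 CPM on the normal diet and 111 to 216 CPM on high salt. Soat1, the esterifying enzyme of many cell types, was 9.86 times higher in kidney than in liver on the normal diet. The part of any cell type in that difference was not tested.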
